A study of Mus musculus with 6 samples.

Results

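The organic ion and carboxylate transporters are the carriers of the Slc10, Slc13, Slc16, Slc17, Slc22, Slc47 and Slco gene families. They were taken from the array annotation by gene symbol, and each gene was read by the probe set with the highest mean intensity over all samples. The annotation gave 67 such genes, of 18193 genes tested, read by 113 probe sets. A further 2 probe sets were paired with several genes, at least 1 of them in these families, and were not used.

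The samples were 3 of juxtaglomerular (JG) cells and 3 of renal mesenchymal stromal cells (MSC), each hybridised to a single-colour Affymetrix mouse array. JG cells are the renin-secreting cells in the wall of the afferent arteriole, and here they were sorted as YFP-positive cells. The MSC were sorted by the surface antigen CD44 and then grown to confluence in medium with serum. Both groups came from adult C57BL6 mice of the genotype Ren1c YFP, a strain in which a yellow fluorescent protein reports the renin gene Ren1c. The labels repeat the MSC medium on the JG samples, so whether JG cells were cultured is not settled by them. Sex, pooling of animals and the origin of the replicates, from separate mice or separate cultures, are not stated in them. The p-values therefore measure the spread between these samples, which may be technical. Cell type and culture cannot be told apart in this design.

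Kidney tubule cells clear drugs, toxins and metabolites by taking them up from the blood side and releasing them into the urine. Organic anion transporters of the Slc22 family import anions in exchange for dicarboxylates, which sodium-coupled Slc13 carriers bring into the cell. Organic cations enter through other Slc22 carriers and leave through the Slc47 exporters. Slco carriers move bile salts, steroid conjugates, thyroid hormones and prostaglandins. Slc16 carriers move lactate, ketone bodies, aromatic amino acids, creatine and carnitine. Among Slc17 carriers, some export urate or sialic acid and others load transmitters into vesicles. Slc10 carriers move bile salts and sulfated steroids.

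Intensities are linear values in arbitrary units and carry no detection call. Differences are JG minus MSC on the log2(intensity + 16) scale, with the standard error (SE) of the fit, and means are given ± SD with n = 3 per group. A gene was called when its adjusted p from limma, over all 18193 genes, was under 0.05. Where the lower group lay under 16, the difference depends mainly on the higher group and the added 16, and it understates the ratio of the intensities. Levels of different genes are not compared, since each probe set has its own response.

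Of the 67 transporters, 32 were called higher in JG and 3 higher in MSC, and 32 were not called. Over all genes 15.4% were called: 7.7% higher in JG and 7.71% higher in MSC, against 47.8% and 4.48% of the transporters. The median difference of the transporters was 1.53, and that of all genes was 0.07. Among 278 other genes with an Slc symbol, 55 (19.8%) were called higher in JG and 15 (5.40%) higher in MSC, with a median of 0.39. No test was made between these groups of genes. The JG and MSC samples did not overlap for 41 transporters that were higher in JG and 6 that were higher in MSC. Over all genes the same held for 20.2% and 18.7%, or 38.9% together. All 35 called transporters were among the non-overlapping ones, and 26 of them were called in every fit with 1 sample left out. The 3 called higher in MSC dropped to 1 when MSC sample 2, MSC sample 3 or JG sample 3 was left out and rose to 5 when JG sample 1 was. Of the 35, 15 had another probe set. In 8 of these a further probe set was called the same way, and in 0 the opposite way, while 9.8% of all probe sets were called. Another 12 did not overlap between groups but were not called, and 5 of the 67 lay under 16 in all 6 samples.

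**Figure D1:**
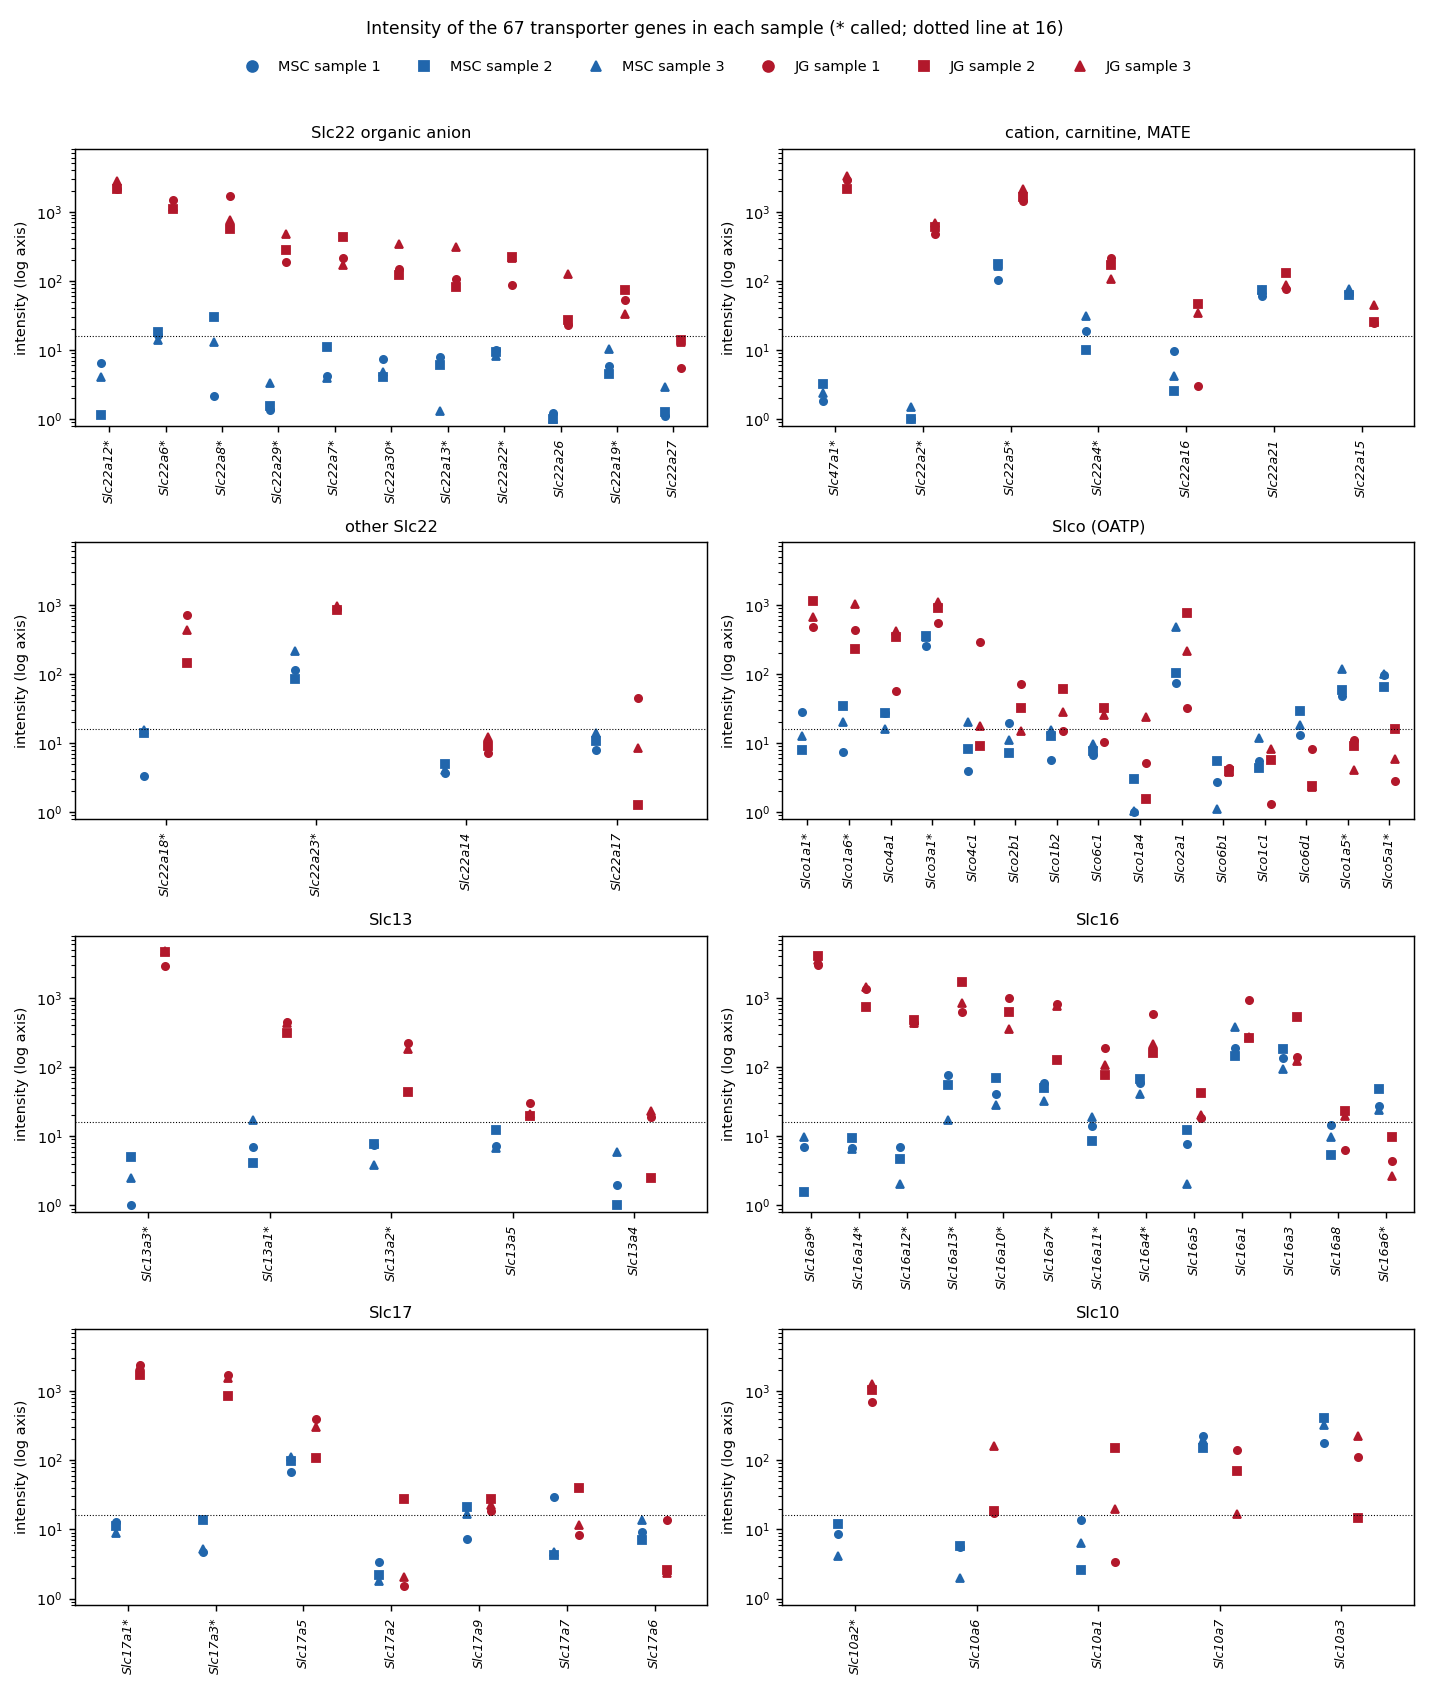
Intensity on a log axis (arbitrary units) of each of the 67 transporters in the 3 MSC samples (blue) and the 3 JG samples (red), with the marker shape giving the sample number, an asterisk marking called genes and a dotted line at 16. Of the genes called higher in JG, 18 lie under 16 in every MSC sample, and the Slco panel has the most genes with overlapping groups.

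**Figure D2:**
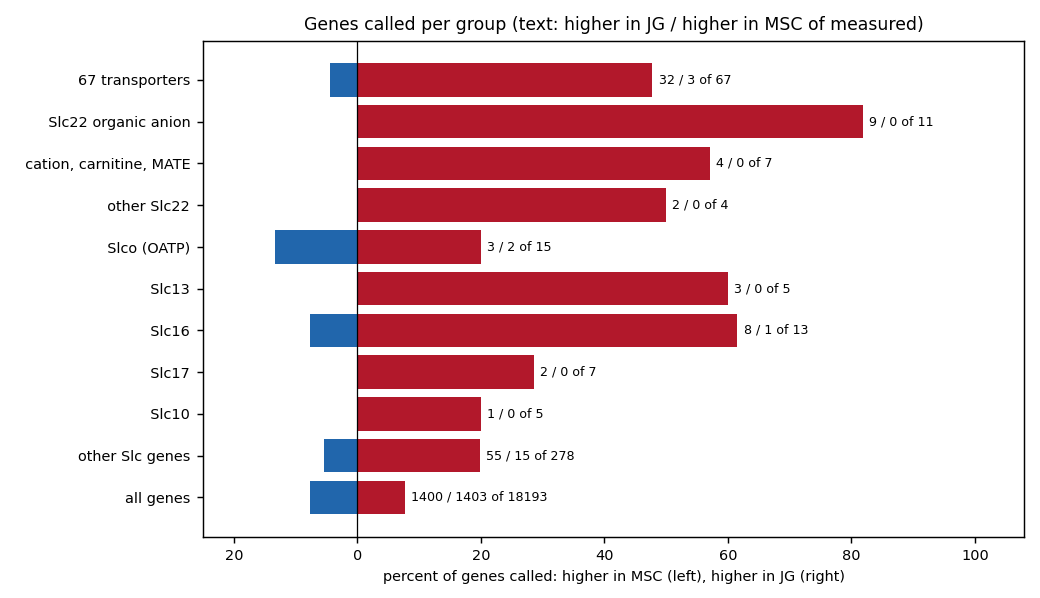
Percentage of genes called higher in JG (red, to the right) and higher in MSC (blue, to the left) for all transporters, for each role group, for other Slc genes and for all genes, with the counts printed beside the bars. The Slc22 organic anion group has 9 of 11 called higher in JG, the Slco group 3 of 15, and all genes 1400 of 18193.

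Markers of the kidney tubule were called higher in JG together with the transporters, and those of endothelium and macrophages in part. Of 18 measured markers of the proximal tubule, none of them a transporter of these families, 17 were called higher in JG. Their summed intensity was 57950 in JG sample 1, 41545 in JG sample 2 and 55501 in JG sample 3, and 463 to 752 in MSC. All 8 measured markers of the thick ascending limb were called higher in JG (summed intensity 10152 to 14131 in JG, 58.2 to 72.5 in MSC), as were 9 of 13 of the distal tubule and collecting duct (7894 to 14469 in JG, 82.9 to 132 in MSC). Endothelial markers were called higher in 6 of 13, with sums of 1236 to 1600.2 in JG and 240.2 to 313 in MSC, and macrophage and leukocyte markers in 4 of 12 (1722 to 4150.2 and 157 to 698). For endothelium 1 or 2 markers were called when an MSC sample was left out and 3 without JG sample 3. For macrophages, leaving out MSC sample 1 or 3 gave 1 call and leaving out JG sample 2 gave 2. Of these 64 markers only Itgam, an integrin of myeloid cells, lay under 16 in every JG sample. Which cells gave the transporter transcripts was not tested, and in bulk RNA more cells of a type and more RNA per cell cannot be told apart.

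Markers of the labelled cells were present in part. Of 11 measured markers of renin cells 5 were called, each higher in JG, including the regulator of G protein signalling Rgs2 (3.96 ± 0.39 SE, limma adjusted p = 0.00159) and the cysteine-rich protein gene Crip1 (3.10 ± 0.47, limma adjusted p = 0.00822). That count fell to 2 when MSC sample 1 was left out and to 3 for MSC samples 2 and 3, and the connexin gene Gja4 lay under 16 in all JG samples. Gja4 (-0.60 ± 0.26) and Aldh1a1 (-1.69 ± 0.47, limma adjusted p = 0.0611) were lower in every JG sample than in any MSC sample and were not called, and 1 of the 11 was called higher in MSC under several settings, among them median centring and leaving out JG sample 1. The sort antigen of the MSC, Cd44, was 881 to 1035 in MSC and 119 to 153 in JG (-2.68 ± 0.22, limma adjusted p = 0.000871). Of 12 mesenchymal and fibroblast markers 3 were called higher in each group, of 7 smooth muscle markers 1 in JG and 5 in MSC, and of 5 podocyte markers 1 in JG and 2 in MSC. Leaving out JG sample 3 or any MSC sample brought the 3 mesenchymal calls in MSC to 1, and leaving out JG sample 1 brought them to 6. The 5 smooth muscle calls in MSC were 3 without MSC sample 1 or 2, and the 1 in JG was lost in 4 of the 6 fits with 1 sample left out. The podocyte call in JG was also lost in 4 of these 6 and became 2 without JG sample 1, and the 2 in MSC were 1 in 4 of them. The arrays' median intensities ran from 27.3 to 36.5. JG sample 1 correlated with the MSC samples at 0.802 to 0.812 across genes and with JG samples 2 and 3 at 0.797 and 0.882, so it stood as near to MSC as to JG sample 2.

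Organic anion transporters of the Slc22 family were the group with the largest share of calls, 9 of 11 higher in JG and none higher in MSC, with a median difference of 3.23. The groups did not overlap for any of the 11, and JG was the higher in each. Slc22a6 encodes OAT1, the carrier that takes up para-aminohippurate at the blood side of the proximal tubule. Its intensity was 1483, 1103 and 1179.6 in JG samples 1 to 3 and 16.3, 18.1 and 14.02 in MSC samples 1 to 3 (difference 5.30 ± 0.23, limma adjusted p = 8.03e-05). The JG samples lay close together and far above MSC. Both of its probe sets were called in the same direction. Slc22a8, which encodes the related carrier OAT3, read 1667, 571 and 767 in JG and 2.18, 29.7 and 12.9 in MSC (4.99 ± 0.51, limma adjusted p = 0.00191). Here JG sample 1 was the highest, and a second, dim probe set at 5.86 to 36.5 in JG was not called.

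Slc22a12 encodes URAT1, the urate carrier of the luminal membrane of the proximal tubule. Its brightest probe set read 2118, 2115 and 2761 in JG and 6.42, 1.15 and 4.01 in MSC (6.88 ± 0.24, limma adjusted p = 4.83e-05), the largest difference in the group. Its other probe set gave a different picture: 93.1, 1017 and 887 in JG and 99.2, 79.9 and 114 in MSC. JG sample 1 lay within the MSC range there, and that probe set was not called (2.05, adjusted p = 0.195 over all probe sets by limma). The call of Slc22a12 was therefore lost when probe sets whose suffix (s or x) marks possible matches to several transcripts were left out (limma adjusted p = 0.165), and when the brightest probe set was chosen on the log2 scale, an alternative added after the data were seen.

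The remaining organic anion members had smaller differences on this scale. Each lay under 16 in every MSC sample, so these differences depend mainly on the JG values and the added 16. Slc22a29 read 189, 282 and 469 in JG and 1.36, 1.53 and 3.33 in MSC (4.10 ± 0.35, limma adjusted p = 0.000982). It is 1 of several closely related mouse genes whose probe sets could share transcripts, so which of them gave the signal is uncertain. Its relative Slc22a30 differed by 3.23 ± 0.39. Slc22a7, which encodes OAT2, differed by 3.59 ± 0.38, with JG values of 167 to 433 against 3.96 to 10.9 in MSC. Slc22a22, the prostaglandin-specific carrier OAT-PG, differed by 2.83 ± 0.37, and JG sample 1 was its lowest JG value at 88.4. Slc22a13, linked to nicotinate and urate transport, differed by 2.91 ± 0.48 and Slc22a19 by 1.56 ± 0.30. Slc22a13 lost its call without MSC sample 2 or 3, and Slc22a19 without any 1 of the MSC samples (highest limma adjusted p of 0.0593 and 0.0877). Both of the members not called also lay higher in every JG sample on the probe set used. Slc22a26 read 23.1, 27.3 and 124 in JG and at most 1.21 in MSC (1.86 ± 0.51, limma adjusted p = 0.0574), and Slc22a27 5.55, 14.2 and 12.9 against at most 2.93 (0.58 ± 0.24, limma adjusted p = 0.153). For Slc22a26, JG sample 3 was the highest, and the gene was called without JG sample 1 or JG sample 3 (limma adjusted p = 0.029 and 0.032). Its other probe set overlapped between groups, at 6.98, 5.47 and 3.56 in JG and 2.72, 7.73 and 13.7 in MSC (-0.15), and was not called. Slc22a27 was under 16 on all arrays.

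Organic cation carriers for uptake and for export were both higher in JG. Slc47a1 encodes MATE1, the proton-coupled exporter that releases organic cations into the urine. It read 2885, 2115 and 3312 in JG and 1.84, 3.22 and 2.40 in MSC (7.21 ± 0.25, limma adjusted p = 4.83e-05), a 148-fold difference on this scale. Slc22a2, which encodes the uptake carrier OCT2 of the blood side, read 477, 611 and 676 in JG and 1.00, 1.00 and 1.48 in MSC (5.12 ± 0.23, limma adjusted p = 9.94e-05). For both genes all JG values lay far above all MSC values. These 2 calls held whichever sample was left out.

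In the carnitine branch of the Slc22 family, Slc22a5 and Slc22a21 read above 16 in every MSC sample. Slc22a5 encodes OCTN2, the sodium-coupled carnitine carrier, and read 1422, 1635 and 2103 in JG and 102, 177 and 167 in MSC (3.41 ± 0.30, limma adjusted p = 0.00105, both probe sets called). Slc22a4, which encodes the ergothioneine carrier OCTN1, read 214, 172 and 107 in JG and 19.1, 10.2 and 30.8 in MSC (2.32 ± 0.35, limma adjusted p = 0.0085). Slc22a21, another carrier of this branch in the mouse, read 76.9, 131 and 86.0 in JG and 59.7, 72.7 and 73.4 in MSC. It was not called, and its 95% interval ran from -0.24 to 1.05, which is below the interval of Slc22a5 (2.69 to 4.14). Slc22a15 went the other way without being called: it read 24.3, 25.5 and 44.3 in JG and 65.1, 62.2 and 75.7 in MSC (-0.84 ± 0.26, limma adjusted p = 0.0772). Slc22a16, the remaining gene of the 7 in this group, overlapped between the groups.

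Among the 4 other Slc22 genes, Slc22a18 and Slc22a23 were called higher in JG. Slc22a18, an imprinted gene whose substrate is not settled, read 705, 147 and 435 in JG and 3.33, 13.8 and 15.3 in MSC (3.84 ± 0.57, limma adjusted p = 0.00787). Its JG values spread 4.81-fold, with JG sample 2 the lowest. Slc22a23 read 876, 845 and 975 in JG and 113, 83.9 and 215 in MSC (2.67 ± 0.35, limma adjusted p = 0.00508), and its JG values agreed within 1.15-fold. Slc22a14 (at most 12.2 on any array) was not called. Slc22a17, which encodes a receptor for lipocalin-2, read 44.5, 1.29 and 8.42 in JG and 7.92, 10.6 and 14.02 in MSC, and was not called either.

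**Figure D3:**
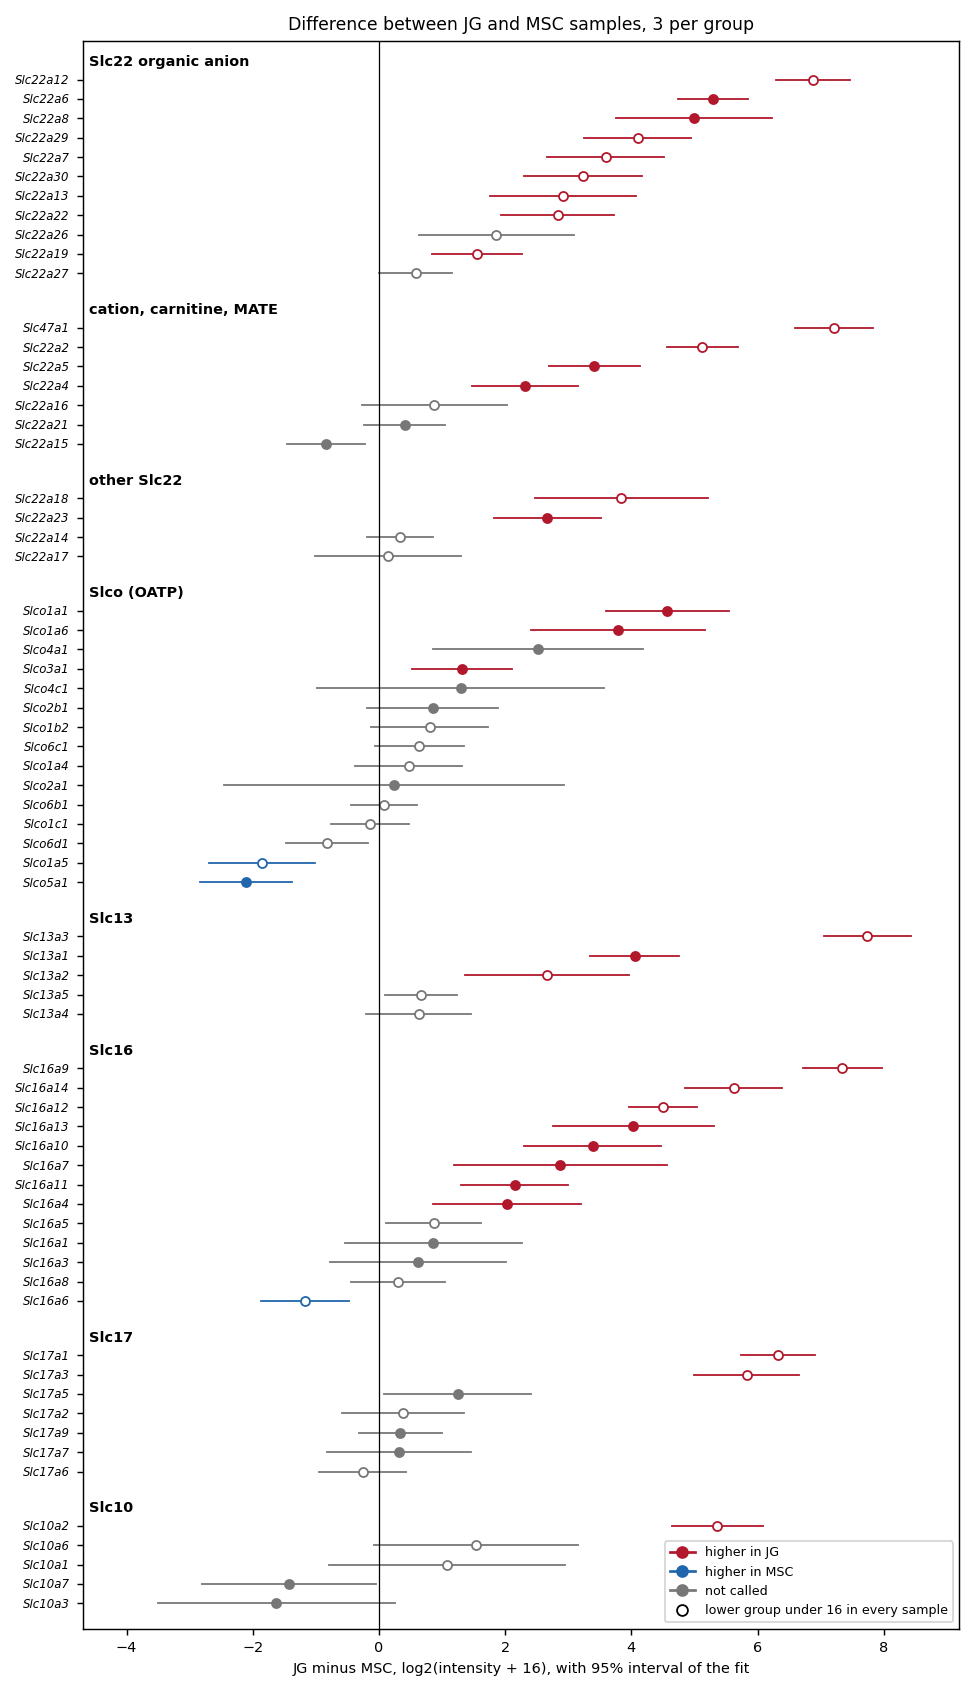
Difference JG minus MSC on the log2(intensity + 16) scale (points) with its 95% interval from the fit (lines) for each of the 67 transporters, ordered by role group, in red where called higher in JG, blue where called higher in MSC and grey where not called. Open points mark genes whose lower group was under 16 in every sample. Slc13a3 (7.74), Slc16a9 (7.34) and Slc47a1 (7.21) lie farthest to the right and Slco5a1 (-2.10) and Slco1a5 (-1.85) farthest to the left.

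The dicarboxylate and sulfate carriers had 3 of 5 members called higher in JG. Slc13a3 encodes NaDC3, which brings dicarboxylates such as alpha-ketoglutarate into the cell from the blood side and so supplies the exchange on which OAT1 and OAT3 depend. It read 2875, 4607 and 4807 in JG and 1.02, 5.03 and 2.45 in MSC (7.74 ± 0.28, limma adjusted p = 5.76e-05). On the probe sets used and with 16 added, this was the largest difference of all 67 transporters. JG sample 1 was the lowest of the JG samples. The probe set used carries the suffix x. A second probe set of Slc13a3, at 227 to 671 in JG and at most 8.95 in MSC, was also called, with a smaller difference of 4.53. The other 2 probe sets of Slc13a3, at most 28.8 on any array, were not called. Slc13a1, the sodium-sulfate carrier NaS1, read 453, 313 and 435 in JG and 7.08, 4.07 and 16.9 in MSC (4.05 ± 0.29, limma adjusted p = 0.000484).

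Slc13a2, which encodes NaDC1, the citrate carrier of the luminal membrane, was less even. It read 222, 43.9 and 181 in JG and 7.37, 7.83 and 3.85 in MSC (2.66 ± 0.54, limma adjusted p = 0.0229). JG sample 2 lay far below the other JG samples, and leaving out JG sample 3 or any MSC sample ended the call (highest limma adjusted p = 0.0969) and with 64 added in place of 16. Slc13a5, a citrate carrier best known from liver, read 30.1, 19.4 and 21.2 in JG and 7.27, 12.4 and 6.82 in MSC and was not called (0.67 ± 0.24, limma adjusted p = 0.111). Slc13a4, a sulfate carrier, read 18.7, 2.45 and 23.0 against 1.94, 1.00 and 6.01 and was not called.

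Monocarboxylate carriers split within the family. Of 13 members 8 were called higher in JG and 1, Slc16a6, higher in MSC, with a median difference of 2.15. The 8 became 5 without MSC sample 1 or 2. Slc16a9, a carnitine exporter, had the largest difference of the family: 3028, 4058 and 3575 in JG and 6.95, 1.54 and 9.76 in MSC (7.34 ± 0.26, limma adjusted p = 4.83e-05, all 3 probe sets called). Slc16a14, whose substrate is not settled, read 1361, 745 and 1461 in JG and 6.79, 9.44 and 6.44 in MSC (5.62 ± 0.32, limma adjusted p = 0.000188). Slc16a12, a creatine carrier, read 430.3, 480.5 and 432 in JG and 6.88, 4.63 and 2.03 in MSC (4.50 ± 0.22, limma adjusted p = 0.000119). Its JG values agreed within 1.12-fold, the narrowest JG spread of the 32 transporters called higher in JG.

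Another 5 members were called higher in JG. Slc16a13 read 629, 1720.3 and 843 in JG and 77.1, 56.0 and 17.1 in MSC (4.03 ± 0.53, limma adjusted p = 0.00502). Slc16a10 encodes TAT1, a carrier of aromatic amino acids and thyroid hormones, and differed by 3.39 ± 0.45, with 2 of its 4 probe sets called. Slc16a11 differed by 2.15 ± 0.35, and its call was lost without MSC sample 1 or 2. Slc16a7 encodes MCT2, a lactate and pyruvate carrier, and read 809.9, 129 and 765 in JG against 32.8 to 58.0 in MSC (2.88 ± 0.70, limma adjusted p = 0.0406). JG sample 2 was again the lowest, and the call was lost without any 1 sample except JG sample 2. Slc16a4 (2.03 ± 0.49, limma adjusted p = 0.0394) lost its call when JG sample 3 or any MSC sample was left out. Both genes also lost it with 64 added in place of 16, and Slc16a4 with the mean of its probe sets.

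The widely expressed lactate carriers were not called. Slc16a1, which encodes MCT1, read 924, 265 and 276 in JG and 192, 143 and 375 in MSC (0.86 ± 0.58, limma adjusted p = 0.357, 95% interval -0.54 to 2.27). Slc16a3 encodes MCT4, the lactate exporter of glycolytic cells, and read 139, 537 and 123 in JG and 137, 183 and 93.4 in MSC (0.61 ± 0.58, limma adjusted p = 0.51). In each of them a single JG sample lay above the rest, JG sample 1 for Slc16a1 and JG sample 2 for Slc16a3. Slc16a6, a carrier linked to ketone body export, read 4.39, 9.82 and 2.62 in JG and 27.4, 48.9 and 24.0 in MSC (-1.18 ± 0.29, limma adjusted p = 0.0415). Its groups were separate, but the call ended when JG sample 3 or any MSC sample was left out, with median centring, with the dimmest 25% of genes left out and with 64 added.

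The Slco family was called in both directions. Of 15 members 3 were called higher in JG and 2 higher in MSC, 10 were not called, and the median difference was 0.64. Leaving out JG sample 1 raised the 3 to 5, and the 2 dropped to 1 when MSC sample 2, MSC sample 3 or JG sample 3 was left out. Slco1a1, a carrier of steroid conjugates at the luminal membrane of mouse proximal tubule, read 483, 1151 and 672 in JG and 28.0, 7.92 and 12.6 in MSC (4.57 ± 0.40, limma adjusted p = 0.00108, both probe sets called). Slco1a6 read 428, 229 and 1013 in JG and 7.53, 33.9 and 20.4 in MSC (3.79 ± 0.57, limma adjusted p = 0.00851). Slco3a1, a widely expressed carrier, read 538, 889 and 1092 in JG and 255, 355 and 339 in MSC (1.32 ± 0.33, limma adjusted p = 0.0442). Slco3a1 was the nearest to the threshold: none of its 3 probe sets was called over all probe sets (lowest limma adjusted p = 0.0567), and it kept its call only without JG sample 1 among the fits with 1 sample left out. It was also lost with 1 added in place of 16 and with a variance prior that follows intensity.

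Slco5a1 and Slco1a5 were called higher in MSC. Slco5a1, whose substrate is not settled, read 97.1, 64.5 and 99.9 in MSC and 2.85, 16.2 and 5.86 in JG (-2.10 ± 0.30, limma adjusted p = 0.00708), and this call held whichever sample was left out. Slco1a5, a bile salt and steroid conjugate carrier, read 47.7, 58.6 and 119.8 in MSC and 11.2, 9.14 and 4.06 in JG (-1.85 ± 0.35, limma adjusted p = 0.0181). Its call was lost when MSC sample 2, MSC sample 3 or JG sample 3 was left out, and with the mean of its probe sets. Each of these genes had a second, dimmer probe set that was not called.

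The Slco members not called included genes with very unequal JG samples. Slco4a1 read 56.6, 346 and 415 in JG and 27.6, 26.9 and 16.01 in MSC (2.52 ± 0.69, limma adjusted p = 0.0566), so JG sample 1 lay nearest to MSC. That probe set carries the suffix x. The other probe set of Slco4a1 overlapped between groups, at 2.24, 26.1 and 32.6 in JG and 13.5, 19.3 and 13.3 in MSC. Its difference was 0.097 (limma adjusted p = 0.904 over all probe sets). Slco4c1, a carrier of cardiac glycosides and thyroid hormone in the proximal tubule, read 288, 9.10 and 17.7 in JG, and only JG sample 1 stood above the MSC range of 3.96 to 20.3. Slco2a1, the prostaglandin uptake carrier found on endothelium, read 32.5, 771 and 212 in JG and 73.0, 104 and 475 in MSC (0.24 ± 1.12, limma adjusted p = 0.905). Its probe sets pointed in both directions: the other 3 had lower means in JG, the nearest to a call at -1.76 (limma adjusted p = 0.0506 over all probe sets). Slco2b1, Slco1b2, Slco1a4 and Slco6c1 had differences of 0.47 to 0.85, Slco6d1 of -0.83, and Slco6b1 and Slco1c1 lay under 16 on every array.

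Of the 7 Slc17 genes, Slc17a1 and Slc17a3 were called higher in JG and the other 5 were not called. Slc17a1, which encodes NPT1, a urate and organic anion exporter, read 2424, 1710.2 and 2339 in JG and 12.8, 11.3 and 8.90 in MSC (6.32 ± 0.24, limma adjusted p = 6.39e-05). Slc17a3, which encodes the related NPT4, read 1714, 856 and 1559 in JG and 4.64, 13.6 and 5.18 in MSC (5.83 ± 0.34, limma adjusted p = 0.000217). In both, JG sample 2 was the lowest JG sample and still far above MSC, and both calls held whichever sample was left out. Slc17a5, which encodes the lysosomal sialic acid exporter sialin, read 390.0, 108.1 and 306 in JG and 68.5, 97.7 and 110.5 in MSC and was not called (1.25 ± 0.48, limma adjusted p = 0.135). The vesicular nucleotide carrier gene Slc17a9 read 18.2, 27.8 and 22.2 against 7.19, 21.3 and 16.6 and was not called. The vesicular glutamate carrier genes Slc17a6 and Slc17a7 (-0.26 and 0.32) and Slc17a2 (0.38) were not called, and their groups overlapped.

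Of the 5 Slc10 genes, Slc10a2 was called higher in JG. It encodes ASBT, the sodium-dependent bile acid carrier of ileum and kidney tubule, and read 702, 1031 and 1252 in JG and 8.45, 12.0 and 4.10 in MSC (5.36 ± 0.30, limma adjusted p = 0.000184). Slc10a6, the carrier of sulfated steroids, read 17.1, 18.4 and 163 in JG and 1.97 to 5.69 in MSC, with JG sample 3 alone high (1.53 ± 0.67, limma adjusted p = 0.175). Slc10a1, the hepatic bile acid carrier NTCP, was 151 in JG sample 2 and at most 19.9 elsewhere, and was not called. Its other probe set was lower in JG (-0.96) and not called either. Slc10a7 read 226, 150.3 and 195 in MSC and 141, 69.8 and 16.7 in JG, and Slc10a3 175, 409 and 326 in MSC and 111, 14.5 and 226 in JG. Neither was called (-1.42 ± 0.57 and -1.63 ± 0.78, limma adjusted p = 0.148 and 0.206), but 1 of the 5 was called higher in MSC without JG sample 1.

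The JG samples varied among themselves more for some members than for others. For the 32 transporters called higher in JG, the highest JG value was a median of 2.13 times the lowest, and it was 1.96 times for all 1400 genes called higher in JG. JG sample 2 was the lowest of the JG samples for 17 of the 32, JG sample 1 for 11 and JG sample 3 for 4. JG sample 2 also had the lowest summed intensity of the proximal tubule markers (41545). The same held for markers of the thick ascending limb (10152), the distal tubule and collecting duct (7894), and mesenchymal cells and fibroblasts (11711). For endothelial and for macrophage and leukocyte markers JG sample 1 had the lowest sum. A link between these sums and the transporters was not tested. The widest spreads among the 32 were those of Slc16a7 (6.30-fold), Slc13a2 (5.06-fold), Slc22a18 (4.81-fold) and Slco1a6 (4.42-fold). JG sample 2 was the lowest in each of these 4.

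Several transporters lie beside one another in the genome, in the gene order of RefSeq for GRCm38.p6, with no other protein-coding gene between them. The run of 8 that ends in Slc22a8 and Slc22a6 holds 7 measured genes, of which 5 were called higher in JG (1.56 to 5.30) and 2, Slc22a26 and Slc22a27, were not. Slc22a27 and Slc22a29 were read by probe sets with the suffix x, so related genes of this run could share signal. In several other runs the fitted differences of neighbours were not alike. Slc22a21 (0.41) lies between Slc22a5 (3.41) and Slc22a4 (2.32), and Slc17a2 (0.38) beside Slc17a3 (5.83) and Slc17a1 (6.32). Slc22a14 (0.33) lies beside Slc22a13 (2.91), and Slco1a4 (0.47) beside Slco1a1 (4.57). On the probe sets used, Slc22a14 read at most 12.25 on any array, Slc17a2 at most 27.9 and Slco1a4 at most 23.9. Probe sets this dim cannot show whether those genes differ in expression from their neighbours. Slco1a6 (3.79) and Slco1a5 (-1.85) are neighbours called in opposite directions. Both Slc16a11 (2.15) and its neighbour Slc16a13 (4.03) were called higher in JG.

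**Figure D4:**
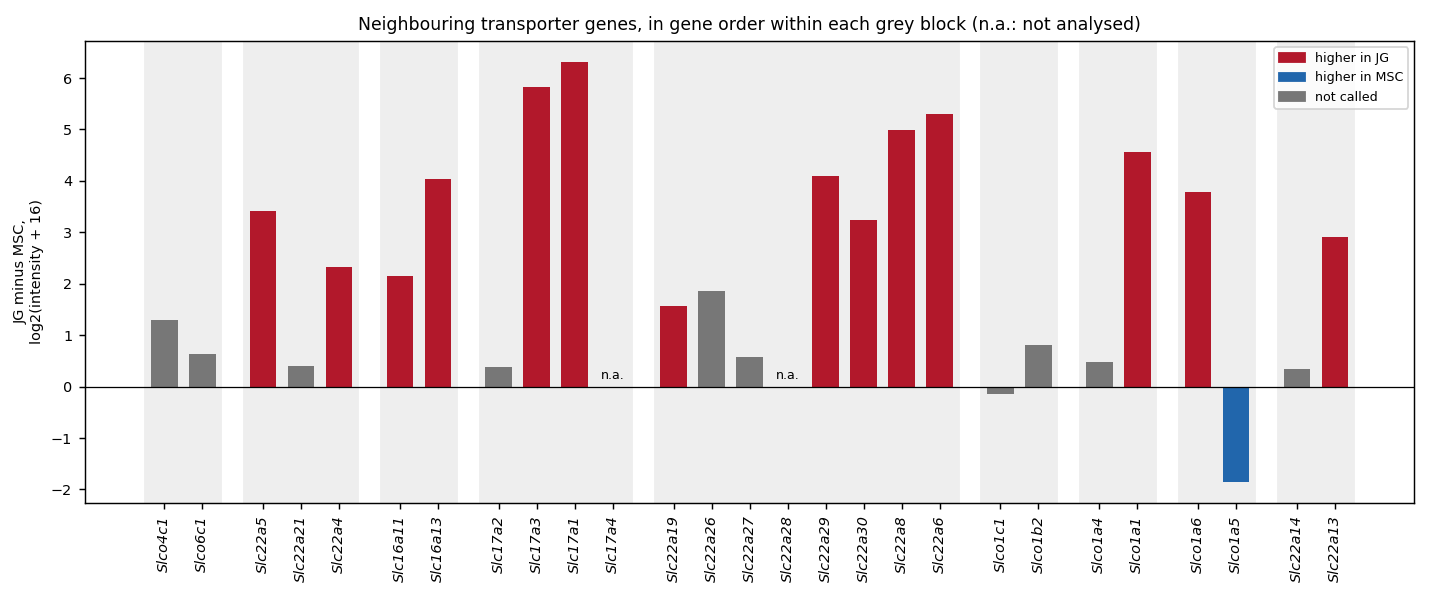
Difference JG minus MSC on the log2(intensity + 16) scale (bars) for transporters that are direct neighbours in RefSeq gene order, each grey block being a run of neighbours with at least 2 measured members, in red where called higher in JG, blue where called higher in MSC and grey where not called. Slco1a6 (3.79) and Slco1a5 (-1.85) are the pair called in opposite directions.

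Promoter sequence was looked at because many members were higher together. RefSeq promoters (GRCm38.p6) were found for 55 of the 67 genes, and the 250 bases before each start were searched on both strands for the core of the binding site of the tubular factor HNF1, which is GTTAAT, any base and ATT, and for CAAAGTCCA, a binding site of HNF4. These motifs do not overlap each other. The HNF1 letters were found for 2 of the 55 genes (3.64%), both called higher in JG, and for 0.44% of 27025 genes in the promoter table. The HNF4 letters were found for 0 of the 55 and for 0.451% of all genes. Among all genes called higher in JG the HNF1 letters were found for 15 of 1108 (1.35%), and among those called higher in MSC for 2 of 1107 (0.181%). The matches describe letters only and are not known to be bound. The 2 windows, which hold the only matches among the members, are shown with the matched letters in capitals. They lie on the minus strand at chr8:5105288-5105537 for Slc10a2 and at chr19:8218901-8219150 for Slc22a29.
Slc10a2: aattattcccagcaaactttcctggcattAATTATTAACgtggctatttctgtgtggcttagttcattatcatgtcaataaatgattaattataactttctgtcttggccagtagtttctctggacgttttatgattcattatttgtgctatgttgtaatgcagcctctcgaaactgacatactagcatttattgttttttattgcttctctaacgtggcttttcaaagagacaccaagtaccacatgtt
Slc22a29: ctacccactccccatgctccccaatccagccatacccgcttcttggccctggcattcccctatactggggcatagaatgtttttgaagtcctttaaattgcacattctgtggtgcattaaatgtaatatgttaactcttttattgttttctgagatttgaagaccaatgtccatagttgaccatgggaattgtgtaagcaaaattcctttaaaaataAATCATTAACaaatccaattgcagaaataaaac
The match begins 221 bases before the start of Slc10a2 and 33 bases before the start of Slc22a29, and both are on the opposite strand to the gene.

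Genes that work with these transporters were counted in lists. Of 5 measured genes for tubular transcription and scaffolding, 4 were called higher in JG: the nuclear receptor gene Hnf4a (515 to 1322 in JG, at most 15.7 in MSC, 4.90 ± 0.37), Pdzk1, whose protein tethers luminal carriers including URAT1 (5.69 ± 0.34), Pdzk1ip1 (6.77 ± 0.24) and Slc9a3r1. Hnf4a is also among the proximal tubule markers. Of 10 ABC exporters of drugs and conjugates, Abcc2, a luminal exporter of anion conjugates (829, 841 and 879 in JG, 7.30, 26.1 and 8.15 in MSC, 4.91 ± 0.30) and Abcg2, which also exports urate (2.67 ± 0.32), were called higher in JG. Abcc1 (80.1 to 124 in JG, 398 to 709 in MSC, -2.35 ± 0.31) was called higher in MSC. That call depended on the probe set read. It was gone once s and x probe sets were dropped, and also once the brightest was picked on the log2 scale. The 2 higher in JG became 4 without JG sample 1, and 1 with s and x probe sets dropped. Of the 11 measured enzymes of citrate and dicarboxylate metabolism 7 were called higher in JG, led by Pck1, which makes phosphoenolpyruvate in gluconeogenesis (6.35 ± 0.50), the aconitase gene Aco1 (2.35 ± 0.26) and Idh2 (1.86 ± 0.24), and none higher in MSC. Only 4 were called when JG sample 3 or any MSC sample was left out.

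Of 8 partners of the monocarboxylate carriers, the lactate dehydrogenase gene Ldhb (6483 to 8492 in JG, 1277 to 1979 in MSC, 2.24 ± 0.26) and the pyruvate carboxylase gene Pcx (4.67 ± 0.40) were called higher in JG. Ldha (0.08 ± 0.27) and Bsg, which encodes the chaperone of MCT1 and MCT4 (-1.20 ± 0.49, limma adjusted p = 0.154), were not called, although 2 of the 8 were called higher in MSC without JG sample 1. Of 9 measured genes for thyroid hormone handling 7 were called higher in JG, with Ttr, the plasma carrier transthyretin (6.07 ± 0.33), and Crym, a thyroid hormone binding protein (4.71 ± 0.39), having the largest differences, followed by the amino acid and thyroid hormone carrier Slc7a8 (4.42 ± 0.54). Slc7a5, another such carrier, was called higher in MSC (-3.78 ± 0.51, limma adjusted p = 0.00561). The 7 thyroid hormone genes called higher in JG became 5 when any MSC sample was left out and 6 without JG sample 2 or 3. Of 9 measured genes for carnitine and fatty acid entry 4 were called higher in JG, led by Aldh9a1 of carnitine synthesis (2.70 ± 0.31) and Cpt1a (2.01 ± 0.33), and Cpt1c was called higher in MSC (-1.23 ± 0.30). Leaving out MSC sample 1 or 2 reduced those 4 to 1, and leaving out MSC sample 3 or JG sample 3 reduced them to 2. Cpt1c kept its call only when JG sample 1 was left out.

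Of the 7 measured sulfation genes 3 were called higher in JG, and the sulfotransferase gene Sult1d1 had the largest difference (1146 to 1337 in JG, at most 1.89 in MSC, 6.17 ± 0.21). Those 3 became 2 without MSC sample 2, MSC sample 3 or JG sample 3, and 4 without JG sample 1 or 2. Of 8 measured prostaglandin enzymes Ptgds (3.91 ± 0.41), Ptges2 (3.21 ± 0.46) and Ptges (2.69 ± 0.41) were called higher in JG and the inducible cyclooxygenase gene Ptgs2 higher in MSC (77.6 to 116 in JG, 395 to 2023 in MSC, -3.18 ± 0.58). Ptgs2 lost its call without MSC sample 2 or JG sample 3. Of 6 other urate genes 0 were called by limma, with 2 higher in JG at an unadjusted p under 0.05, and 1 was called without JG sample 1. The one with the lowest p was Slc2a12 (439, 59.1 and 50.2 in JG, 7.19 to 11.7 in MSC, 2.35 ± 0.74, limma adjusted p = 0.0836).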

How the data were processed

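The deposited table holds linear intensities per probe set for 6 arrays; the authors' summary, background correction and scaling are not given in any source used here. The platform annotation names 1 gene for 34945 of the 45037 probe sets, several for 932 and none for 9160. All 67 transporters matched RefSeq gene identifiers (GRCm38.p6), with 0 changed symbols. Without a build in the files, the only coordinates given are those of RefSeq promoters.

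Each gene was read by its probe set of highest mean intensity, as log2(intensity + 16), without further normalization or filter. The difference between JG and MSC was fitted on all 6 samples with limma 3.58.1 in R 4.3.3 (lmFit and eBayes), with Benjamini-Hochberg adjustment over 18193 genes and a threshold of 0.05. The fit was tested on simulated data in which each gene had the same spread in both groups. The real arrays were not like that: the median SD over genes on the log2(intensity + 16) scale was 0.26 in MSC and 0.55 in JG. The number of arrays limits the precision. Figures were drawn with matplotlib 3.10.9.

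The members and lists were chosen with earlier results of these data known. Per role, up to 4 called members in each direction with the largest difference and up to 2 brightest members not called were named with every sample's value, and per list up to 3 called genes with the largest difference. Others given with values were chosen after their values were seen. Alternatives were 2 array scalings, filters on dim genes, other probe set rules, pseudocounts of 1 and 64, other variance models, weights per array, a block for replicate number, and leaving out each sample. Same-numbered JG and MSC samples deviated with correlations of -0.199, -0.008 and -0.011, so the numbers were not taken as pairs.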

Additional observations from a re-analysis of the deposited data

How the results depend on the processing

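The count of transporters called higher in JG ran from 23 (unmoderated t statistic) to 41 (array weights), within 1.5 times of 32. The 3 called higher in MSC were 5 with array weights, 0 with genes under the median intensity left out, 1 with the unmoderated t statistic and 1 to 5 with 1 sample left out. With a replicate block, 27 and 1 transporters and 891 and 703 of all genes were called higher in JG and MSC. The numbers give no pairing. All genes called numbered 3351 and 3078 with array weights, 816 and 512 with the unmoderated t statistic, and 710 (without MSC sample 1) to 2587 and 419 (without MSC sample 3) to 2714 with 1 sample left out, both highest without JG sample 1. The transporters' median difference of 1.53 was 2.42 and 3.69 with genes under the 25th percentile or the median left out, 1.04 with the mean of probe sets, 1.32 without s and x probe sets, 2.29 and 0.81 with pseudocounts of 1 and 64, and 1.30 (without JG sample 3) to 1.92 (without JG sample 2) with 1 sample left out. Adding 1 gave 1478 genes higher in JG and 1077 higher in MSC. The cause of these changes was not tested.

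Differences that changed sign, none of them called, were those of Slc22a17 (-0.22 with pseudocount 1, -0.052 with array weights, -0.38 to 0.52 with 1 sample left out), Slco2a1 (-0.70 with the mean of probe sets, -0.73 to 1.28 with 1 sample left out), Slco1c1 (0.00675 with array weights, -0.24 to 7.61e-05 with 1 sample left out) and Slc10a1 (-0.96 with the probe set chosen on the log2 scale, an alternative added after the data were seen). With 1 sample left out, Slc16a3 ran from -0.025 to 0.97, Slc17a2 from -0.055 to 0.61 and Slc17a7 from -0.053 to 0.70, each negative without JG sample 2. Where a gene lies under 16, the signal over background limits what can be told.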
